A study of Mus musculus with 6 samples.

Results

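The genes described here encode the enzymes that place, copy and remove 5-methylcytosine in mouse DNA, with the cofactors and the zinc finger protein that guide them. They are Dnmt3a, Dnmt3b, Dnmt3l, Dnmt1, Uhrf1, Hells, Tet1, Tet2, Tet3 and Zfp57. Every gene probe that carries 1 of these names in the scanner files was taken, which gave 20 probes for the 10 genes out of 39429 gene probes on the array. Of the genes, 4 had 1 probe, 2 had 2 probes and 4 had 3 probes. All 20 probes passed the filter on dim signals, and 19 of them were well above background on all 6 arrays.

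RNA came from 3 samples of Zscan5b knockout embryonic stem (ES) cells and 3 samples of wild type ES cells, which the series describes as biological replicates. Each sample was hybridised to its own 1-colour Agilent array. Cells of both genotypes were kept undifferentiated with leukemia inhibitory factor on mitomycin-inactivated mouse embryonic fibroblasts, so RNA from these feeder cells could be present in every sample. The labels do not give the position of the Zscan5b deletion, how it was made, or whether the knockout samples came from separate clones.

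DNA methylation in mammals is set by the de novo methyltransferases Dnmt3a and Dnmt3b, with the catalytically inactive cofactor Dnmt3l. It is copied after replication by Dnmt1, which Uhrf1 brings to hemimethylated DNA, and the chromatin remodeller Hells opens heterochromatin to these enzymes. The Tet dioxygenases oxidise 5-methylcytosine, and the oxidised bases are lost by dilution at replication or by base excision repair, while Zfp57 keeps the methylation of imprinted regions. Mouse ES cells express the Dnmt3 genes, Tet1 and Tet2, and their methylation is known to differ widely between the naive and primed states of pluripotency.

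Values are log2 signal minus the 75th percentile of the same array, and a fold change is the knockout mean minus the wild type mean on that log2 scale. Because probes bind with different efficiency, a value can be compared between arrays for 1 probe but not between probes. The probe for Zscan5b itself read -4.47, -5.17 and -5.13 in knockout replicates 1 to 3, against -3.66, -4.03 and -3.12 in wild type replicates 1 to 3. Every knockout array was below every wild type array, with a fold change of -1.32 (SE 0.29) that did not pass the test (limma adjusted p = 0.107), or -0.59 with normexp background correction (limma adjusted p = 0.108). The 75th percentile signal was 897 to 1028 on the knockout arrays and 852 to 932 on the wild type arrays. All 10 ES cell identity genes, Pou5f1, Nanog and Sox2 among them, were detected and none passed the test. The median fold change of -0.12 covers members that went both ways: every knockout array was lower for Pou5f1 (-0.47, limma adjusted p = 0.104) and higher for Nanog (0.66, limma adjusted p = 0.175). All 22 feeder fibroblast markers were detected too, with negative fold changes throughout and a median of -1.01, against -0.01 for all tested probes. Relative to each marker's own mean, the feeder list averaged -0.71, -0.22 and -0.59 in the knockout replicates, against -0.60, 1.13 and 1.00 in the wild type replicates. All knockout arrays lay on 1 slide and all wild type arrays on another, so genotype and slide cannot be told apart.

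Dnmt3b and Dnmt3l showed the largest negative fold changes of the 10 genes, Hells followed, and the other genes had brightest probes within 0.3 log2 units of equality. None of the 20 probes passed the test at an adjusted p of 0.05 (limma with Benjamini-Hochberg adjustment over 26649 tested probes), and the smallest adjusted p among them was 0.126. Across the array 0.465% of all tested probes passed (0.341% lower and 0.124% higher in the knockout). An unadjusted p below 0.05 was reached by 5 of the 20 probes, against 21.9% of all tested probes. Of these, 4 had negative fold changes (11.3% of all tested probes) and 1 a positive one (10.6%). The Dnmt3b probes were 3 of those 4, and probes of the same gene are not independent. Fold changes were negative for 15 of the 20 probes, with a median of -0.08, against 51.4% of all tested probes. Every knockout array lay below every wild type array for 5 probes (15.4% of all tested probes), and above for 1 probe (13.6% of all tested probes). The p-values rest on 3 arrays a group and set each difference against the spread within groups, moderated over all tested probes. Whether that spread covers separate knockout clones is not known from the labels.

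**Figure D1:**
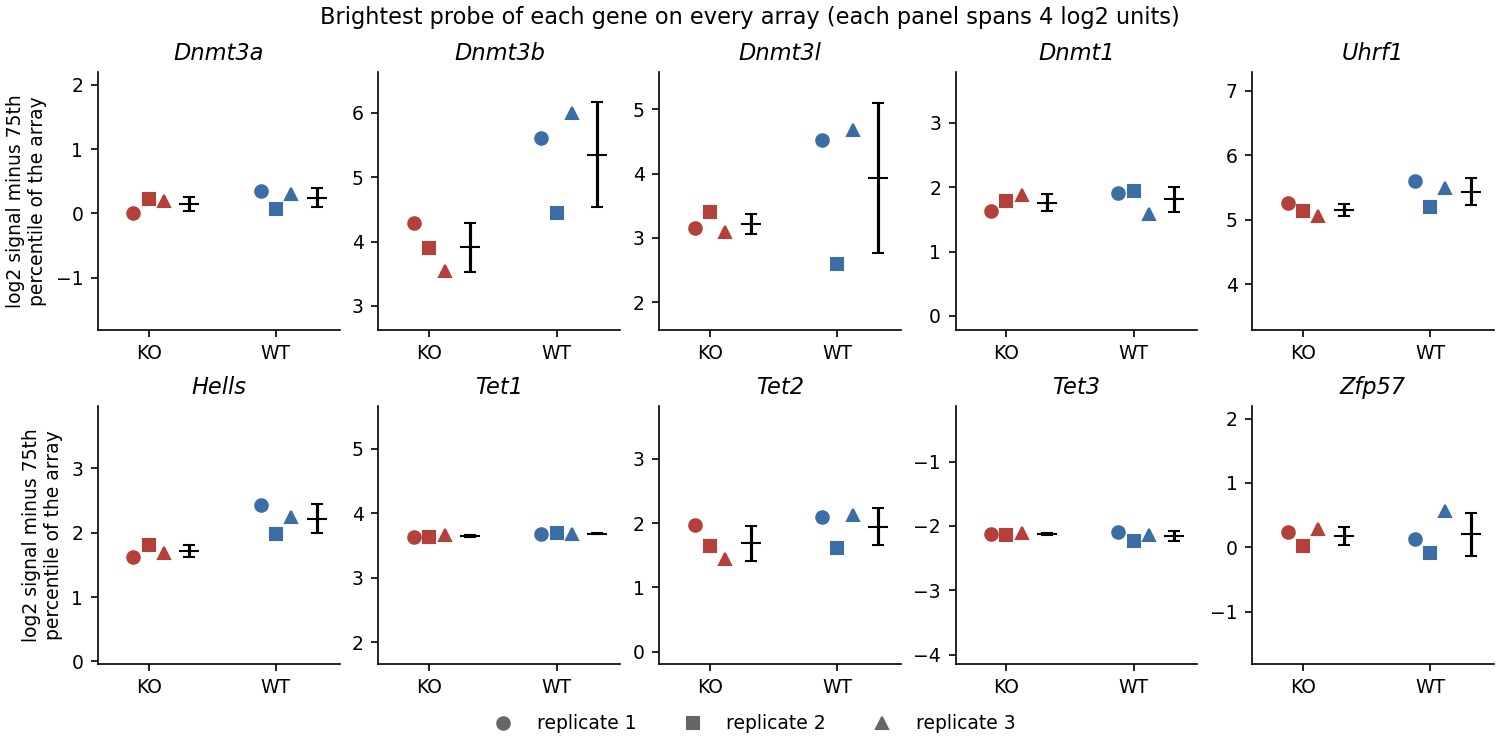
Brightest probe of each gene on each of the 6 arrays, with Zscan5b knockout (KO, red) left of wild type (WT, blue), in log2 signal minus the array's 75th percentile; marker shapes give the replicate number, and bars the mean ± SD of 3 arrays. Panels have their own origin but the same span; Dnmt3b is lower on all 3 knockout arrays, while wild type replicate 2 of Dnmt3l lies below every other array.

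Of the de novo enzymes, Dnmt3b is the form most abundant in the early embryo and in ES cells. Its 3 probes lie along the 3' end of the transcript on chromosome 2 of build mm9, plus strand. The first of these covers the end of the coding sequence, and it is shown because it places the measurement: it reads the last codons of the reading frame and the stop codon, so it detects transcripts that reach the end of that frame. The stop codon is in capitals, and the probe spans chr2:153512098-153512157.
Dnmt3b probe A_55_P1975903: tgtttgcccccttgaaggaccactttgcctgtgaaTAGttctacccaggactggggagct

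The brightest Dnmt3b probe, A_55_P2130535 at chr2:153513403-153513462, read 4.29, 3.90 and 3.54 in knockout replicates 1 to 3, against 5.62, 4.44 and 6.001 in wild type replicates 1 to 3. The groups did not overlap, though knockout replicate 1 and wild type replicate 2 lay close together. The fold change was -1.44 (SE 0.42, 95% confidence interval -2.47 to -0.42), with a limma adjusted p of 0.152.

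The probe between the other two, A_55_P2008874 at chr2:153512991-153513050, read 2.34, 1.92 and 1.69 in the knockout arrays, against 3.62, 2.40 and 4.15 in the wild type arrays. It had the same order of arrays, no overlap, and a fold change of -1.41 (SE 0.45, limma adjusted p = 0.167). At the stop codon probe the knockout arrays read 2.36, 1.89 and 1.80, against 3.42, 2.16 and 4.02 in the wild type arrays. Here knockout replicate 1 was above wild type replicate 2, and the fold change was -1.19 (SE 0.47, limma adjusted p = 0.218), or -0.78 without wild type replicate 3. The 3 probes thus placed the arrays alike, with wild type replicates 1 and 3 high, wild type replicate 2 near the knockouts and the knockouts low.

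The distance between wild type arrays set the error of Dnmt3b. The SD of its brightest probe was 0.38 over the knockout arrays and 0.81 over the wild type arrays, against medians of 0.13 and 0.22 over all tested probes. Feeder markers were high in wild type replicates 2 and 3, and Dnmt3b was low in the first of these and high in the second. Wild type replicate 1 had a feeder average near those of the knockouts and a Dnmt3b value of 5.62, above each knockout. The part of feeder RNA in the difference was not tested, and in bulk RNA fewer cells of a type and less RNA per cell cannot be told apart.

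Dnmt3l, which stimulates Dnmt3a and Dnmt3b and lacks catalytic activity of its own, was read by 1 probe at chr10:77526112-77526171 (mm9, plus strand). It read 3.16, 3.40 and 3.09 in knockout replicates 1 to 3, against 4.53, 2.59 and 4.68 in wild type replicates 1 to 3. Wild type replicates 1 and 3 were above every knockout, while wild type replicate 2 was the lowest of the 6 arrays, so the groups overlapped. The fold change was -0.72 (SE 0.55, 95% confidence interval -2.05 to 0.61), with a limma adjusted p of 0.456. It was -0.42 without wild type replicate 1 and -0.34 without wild type replicate 3. Its SD was 0.16 over the knockout arrays and 1.16 over the wild type arrays, and the wild type spread was above that of 98.0% of all tested probes.

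Dnmt3a, the other de novo enzyme, differed less between the arrays on its single probe at chr12:3914320-3914379 (mm9, plus strand). It read 0.01, 0.22 and 0.20 in the knockout arrays, against 0.36, 0.07 and 0.31 in the wild type arrays. As in Dnmt3l, wild type replicates 1 and 3 were above every knockout and wild type replicate 2 was not, and the fold change of -0.10 (SE 0.12, 95% confidence interval -0.40 to 0.20) had a limma adjusted p of 0.640. The wild type arrays spanned under 0.3 log2 units.

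Wild type replicate 2 decided the calls among these genes. Without it, 9.69% of all tested probes passed the test (4.16% lower and 5.53% higher in the knockout), and 6 of the 20 probes did, 5 lower and 1 higher. The Dnmt3b probes then had fold changes of -1.90, -1.91 and -1.71 (limma adjusted p = 0.0303, 0.0303 and 0.0327). Dnmt3l had -1.39 (limma adjusted p = 0.0289) and Hells -0.62 (limma adjusted p = 0.0410). The sixth was a dim Tet3 probe, A_51_P199339, with a fold change of 0.73 (limma adjusted p = 0.0425). With any other single array left out, none of the 20 probes passed. Wild type replicate 2 was the lowest wild type array for the Dnmt3b probes, Dnmt3l and Hells, and the highest for that Tet3 probe. Leaving out such an array widens the difference by construction, so these calls add no support for it.

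**Figure D2:**
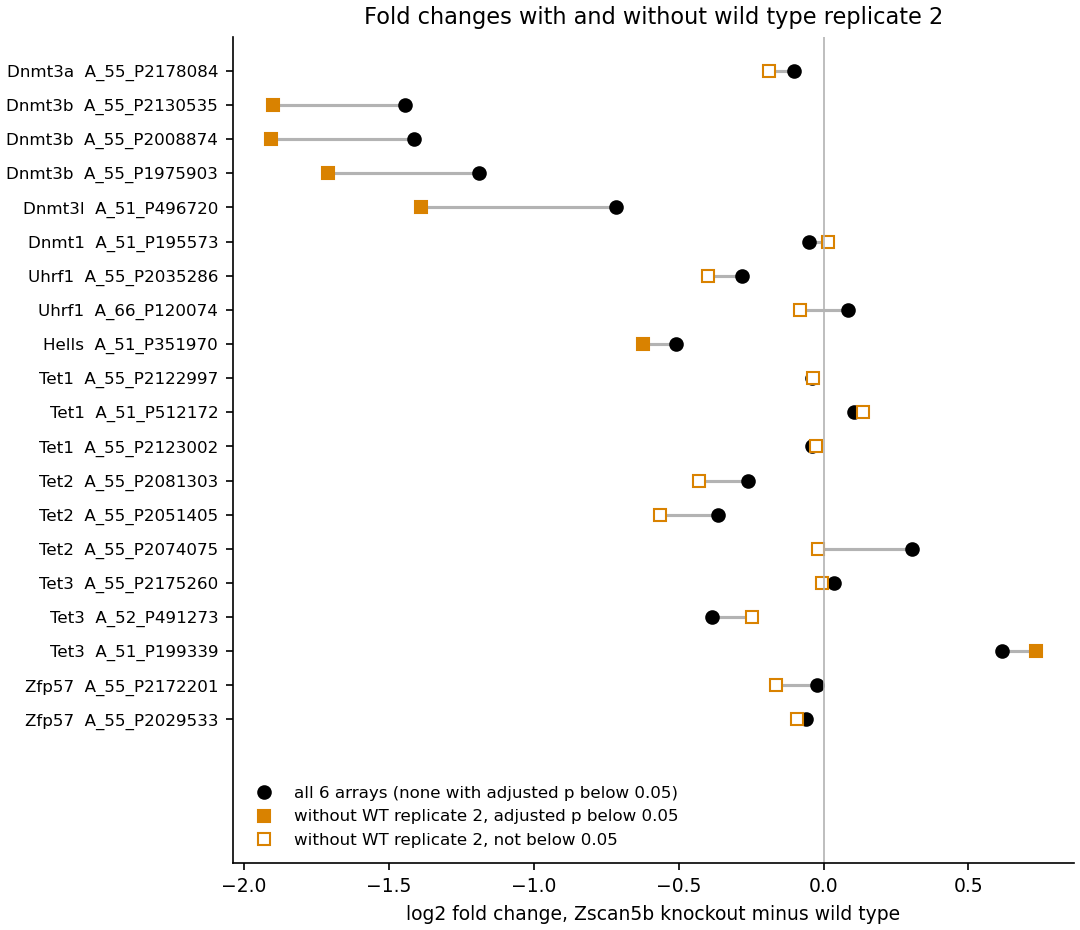
Log2 fold change, knockout minus wild type, of the 20 probes with all 6 arrays (black circles) and without wild type replicate 2 (orange squares, filled where the limma adjusted p was below 0.05). The Dnmt3b probes move from between -1.44 and -1.19 to between -1.91 and -1.71, and Dnmt3l from -0.72 to -1.39.

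Prdm14 and Dppa3, 2 pluripotency genes whose products are known to oppose DNA methylation in mouse ES cells and germ cells, were set beside the Dnmt3 genes after their values were seen. Prdm14, a repressor of Dnmt3b and Dnmt3l, read 1.54, 1.47 and 1.37 in the knockout arrays, against 0.86, 1.80 and 0.56 in the wild type arrays. Dppa3, which keeps Uhrf1 from chromatin, read 1.84, 1.94 and 1.84 in the knockout arrays, against 1.32, 2.00 and 0.57 in the wild type arrays. In both genes wild type replicate 2 was the highest of all 6 arrays and wild type replicates 1 and 3 were the lowest, which is the reverse of the Dnmt3l order at those positions. Neither passed the test, with fold changes of 0.38 and 0.58 (limma adjusted p = 0.486 and 0.353). Without wild type replicate 2, Prdm14 had a fold change of 0.75 (limma adjusted p = 0.0387), beside 9.69% of all tested probes called, and Dppa3 was not called. Leaving out the highest wild type array raises a fold change by construction, so this call restates how Prdm14 was chosen.

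**Figure D3:**
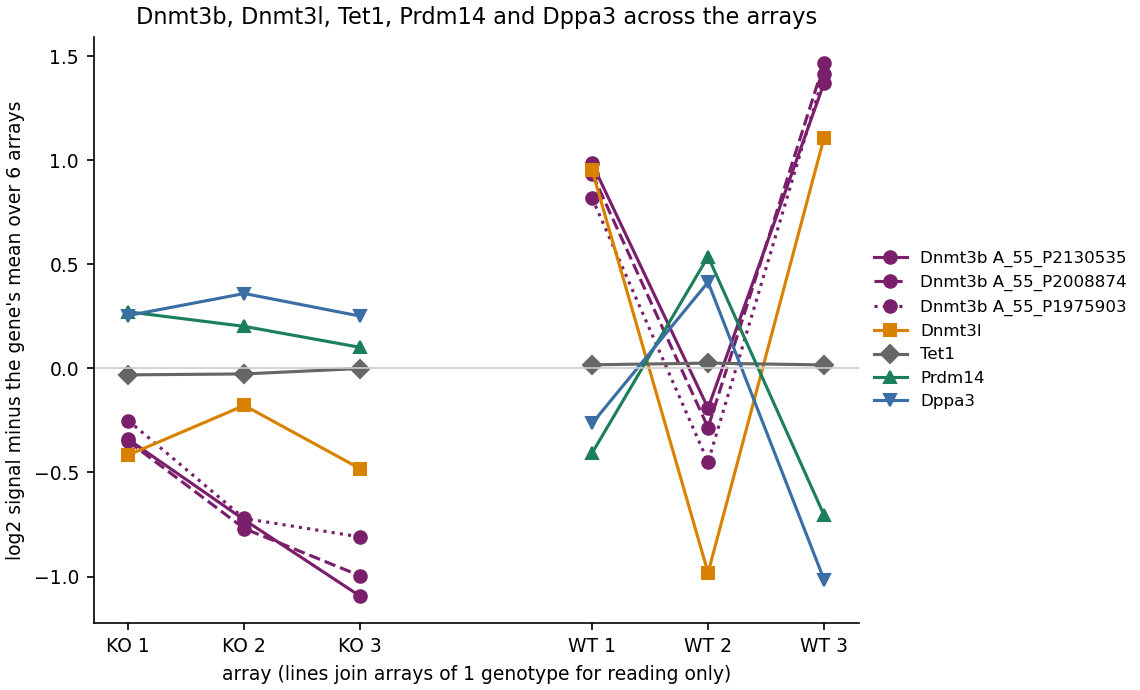
Values of the 3 Dnmt3b probes, Dnmt3l, Tet1, Prdm14 and Dppa3 on each array, in log2 units relative to the mean of the same probe over 6 arrays, knockout arrays left and wild type arrays right; lines join arrays of 1 genotype for reading only. Dnmt3b and Dnmt3l dip in wild type replicate 2, where Prdm14 and Dppa3 peak, and Tet1 stays flat.

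Among 15154 genes compared, those whose centred values over the 6 arrays were nearest to Dnmt3b included Etv1, Smpdl3b, Crisp1 and Enox1. Their root mean square differences from the brightest Dnmt3b probe ran from 0.144 log2 units for Etv1, an ETS family transcription factor, to 0.212 for Enox1. Since likeness over these arrays chose them, their differences between the groups restate that choice.

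The promoters of the pair that moved most differ in CpG content, the substrate of these enzymes. In the RefSeq tables for GRCm38.p6, all 10 genes matched, with 19 annotated starts. The 250 bases before the start held 21 CpG in Dnmt3b at chr2:153649199-153649448 and 5 CpG at the first of the 3 starts of Dnmt3l at chr10:78042037-78042286, both on the plus strand. At the other starts of Dnmt3l the windows held 4 and 3 CpG. The arrays do not tell which start these cells use. The median over all 32851 such windows was 6, and the 19 windows of the 10 genes ranged from 2 to 51 with a median of 15. The 2 windows are shown 5' to 3' with each CpG in capitals, because the genes had the largest negative fold changes.
Dnmt3b promoter: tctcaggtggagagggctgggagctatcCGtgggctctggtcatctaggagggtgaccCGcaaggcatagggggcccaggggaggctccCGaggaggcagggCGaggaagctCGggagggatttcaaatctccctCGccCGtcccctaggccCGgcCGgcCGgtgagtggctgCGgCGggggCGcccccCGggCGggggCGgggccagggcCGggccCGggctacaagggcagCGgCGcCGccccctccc
Dnmt3l promoter: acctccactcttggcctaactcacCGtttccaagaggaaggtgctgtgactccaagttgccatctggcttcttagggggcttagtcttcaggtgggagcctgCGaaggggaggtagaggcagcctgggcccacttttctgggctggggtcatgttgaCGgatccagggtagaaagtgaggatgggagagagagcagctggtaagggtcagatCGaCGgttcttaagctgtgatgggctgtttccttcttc

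The maintenance genes had smaller fold changes than Dnmt3b and Dnmt3l, though those of Hells and of the brighter Uhrf1 probe were larger than that of Dnmt3a. Hells, the remodeller needed for methylation of repeats, was read by 1 probe at chr19:39039914-39039973 (mm9, plus strand), shown because it had the largest negative fold change of this group and no second probe stands beside it.
Hells probe A_51_P351970: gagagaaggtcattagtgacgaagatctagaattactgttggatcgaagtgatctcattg

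Hells read 1.63, 1.81 and 1.69 in knockout replicates 1 to 3, against 2.43, 1.99 and 2.24 in wild type replicates 1 to 3. Every knockout array was below every wild type array. The fold change was -0.51 (SE 0.14, 95% confidence interval -0.85 to -0.16), with a limma adjusted p of 0.143.

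Dnmt1, the maintenance methyltransferase, was read by a probe across an exon junction between 20711973 and 20712341 of chromosome 9 (mm9, minus strand). It read 1.63, 1.78 and 1.88 in the knockout arrays, against 1.91, 1.94 and 1.59 in the wild type arrays. The groups overlapped, with wild type replicate 3 the lowest array, and the fold change of -0.05 (SE 0.14, 95% confidence interval -0.38 to 0.28) had a limma adjusted p of 0.848. Quantile normalization turned this fold change to 0.01.

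Uhrf1, which binds hemimethylated CpG and recruits Dnmt1, had 2 probes on chromosome 17 (mm9, plus strand). The brighter, A_55_P2035286 at chr17:56462770-56462829, read 5.26, 5.13 and 5.06 in the knockout arrays, against 5.60, 5.20 and 5.50 in the wild type arrays. Knockout replicate 1 was above wild type replicate 2, so the groups overlapped, and the fold change was -0.28 (SE 0.14, limma adjusted p = 0.280). The other, A_66_P120074, across an exon junction further 5', read -1.47, -1.69 and -1.75 in the knockout arrays, against -1.57, -2.05 and -1.53 in the wild type arrays. Its fold change was 0.08 (SE 0.17, limma adjusted p = 0.791), so the 2 probes differed in sign and neither passed the test.

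These 3 genes share a feature of their promoters that the choice of genes did not use. Windows of 250 bases before each start were searched on both strands for the E2F site, written TTTCCCGC, TTTCGCGC, TTTGCCGC or TTTGGCGC. It was found in 1 window each of Dnmt1, Hells and Uhrf1, 3 of the 19 windows, against 1.86% of all windows. Every version of the site holds a CpG, and these windows held 26, 28 and 30 CpG, against a median of 6 over all windows. Windows of like CpG content were not compared. The E2F family drives genes of S phase. The sites are in capitals within 40 bases of sequence from RefSeq GRCm38.p6, 5' to 3' on the gene's strand.
Dnmt1, chr9:20952819-20952858, minus strand: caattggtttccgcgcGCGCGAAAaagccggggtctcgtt
Hells, chr19:38930912-38930951, plus strand: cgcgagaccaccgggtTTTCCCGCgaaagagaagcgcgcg
Uhrf1, chr17:56304112-56304151, plus strand: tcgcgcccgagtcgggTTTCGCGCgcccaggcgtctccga

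The site began 219 bases before the start in Dnmt1, on the opposite strand to the gene, 62 in Hells and 185 in Uhrf1. The GC box, GGGCGG, which also holds a CpG, was in 12 of the 19 windows, against 32.7% of all windows. The core of the hypoxia response element, ACGTG or GCGTG, was in 8 of the 19, against 38.6%. The octamer bound by Pou5f1 and its relatives, ATGCAAAT, was in 0 of the 19, against 1.60%, and the B box of RNA polymerase III genes was in 0 of the 19, against 0.0335%. Matches of different motifs that overlapped were all kept, and a match describes letters only.

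The Tet genes did not move together. Tet1, the dioxygenase most associated with ES cells, had 3 probes on the minus strand of chromosome 10 (mm9). The brightest, A_55_P2122997 at chr10:62274448-62274507, read 3.63, 3.64 and 3.66 in the knockout arrays, against 3.68, 3.69 and 3.68 in the wild type arrays. All knockout values were below all wild type values, yet the fold change was -0.04 (SE 0.09, 95% confidence interval -0.25 to 0.17, limma adjusted p = 0.808). The SD was 0.02 over the knockout arrays and 0.0048 over the wild type arrays, among the smallest of the tested probes, and quantile normalization turned the fold change to 0.08. The other 2 probes had fold changes of 0.11 (A_51_P512172) and -0.04 (A_55_P2123002) with overlapping groups. Tet1 was thus level across the wild type arrays between which Dnmt3b and Dnmt3l differed.

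Tet2, also expressed in ES cells, had 3 probes on the minus strand of chromosome 3 (mm9). The brightest, A_55_P2081303 at chr3:133126751-133126810, read 1.97, 1.65 and 1.44 in the knockout arrays, against 2.10, 1.61 and 2.13 in the wild type arrays. The groups overlapped, since wild type replicate 2 lay below knockout replicates 1 and 2, and the fold change was -0.26 (SE 0.20, limma adjusted p = 0.462). A neighbouring probe, A_55_P2051405, read 0.21, -0.18 and -0.16 in the knockout arrays, against 0.52, -0.08 and 0.52 in the wild type arrays, with a fold change of -0.36 (SE 0.21, limma adjusted p = 0.339). Both probes had wild type replicates 1 and 3 as the highest arrays. The remaining probe, A_55_P2074075, designed on a cDNA clone rather than the reference transcript, had a fold change of 0.30 (SE 0.29, limma adjusted p = 0.552), so the probes differed in sign.

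Tet3, the dioxygenase of the oocyte and zygote, was read by 3 probes on the minus strand of chromosome 6 (mm9) that disagreed. The brightest, A_55_P2175260 at chr6:83319720-83319779, read -2.12, -2.14 and -2.11 in the knockout arrays, against -2.09, -2.24 and -2.14 in the wild type arrays. The groups overlapped, with a fold change of 0.03 (SE 0.09, limma adjusted p = 0.844) that normexp background correction turned to -0.02 and quantile normalization to -0.04.

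At A_52_P491273 (chr6:83352743-83352802) every knockout array was lower, reading -5.41, -5.40 and -5.64, against -5.14, -4.83 and -5.34 in the wild type arrays. At A_51_P199339 (chr6:83318731-83318790) every knockout array was higher, reading -5.60, -5.66 and -5.33, against -6.35, -5.91 and -6.17 in the wild type arrays. The fold changes were -0.39 (SE 0.16, limma adjusted p = 0.231) and 0.62 (SE 0.16, limma adjusted p = 0.126). The second of these was well above background on 3 knockout arrays and 2 wild type arrays. With normexp background correction the fold changes shrank to -0.13 and 0.11, and the probes give no single direction for the gene.

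Zfp57, which binds a methylated hexamer at imprinted regions and recruits Trim28, had 2 probes on the plus strand of chromosome 17 (mm9). The brighter, A_55_P2172201 at chr17:37147440-37147499, read 0.24, 0.02 and 0.29 in the knockout arrays, against 0.12, -0.08 and 0.57 in the wild type arrays. The groups overlapped, and the fold change was -0.02 (SE 0.19, 95% confidence interval -0.48 to 0.43, limma adjusted p = 0.955). The second probe, A_55_P2029533, had a fold change of -0.06 (SE 0.10, limma adjusted p = 0.748).

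**Figure D4:**
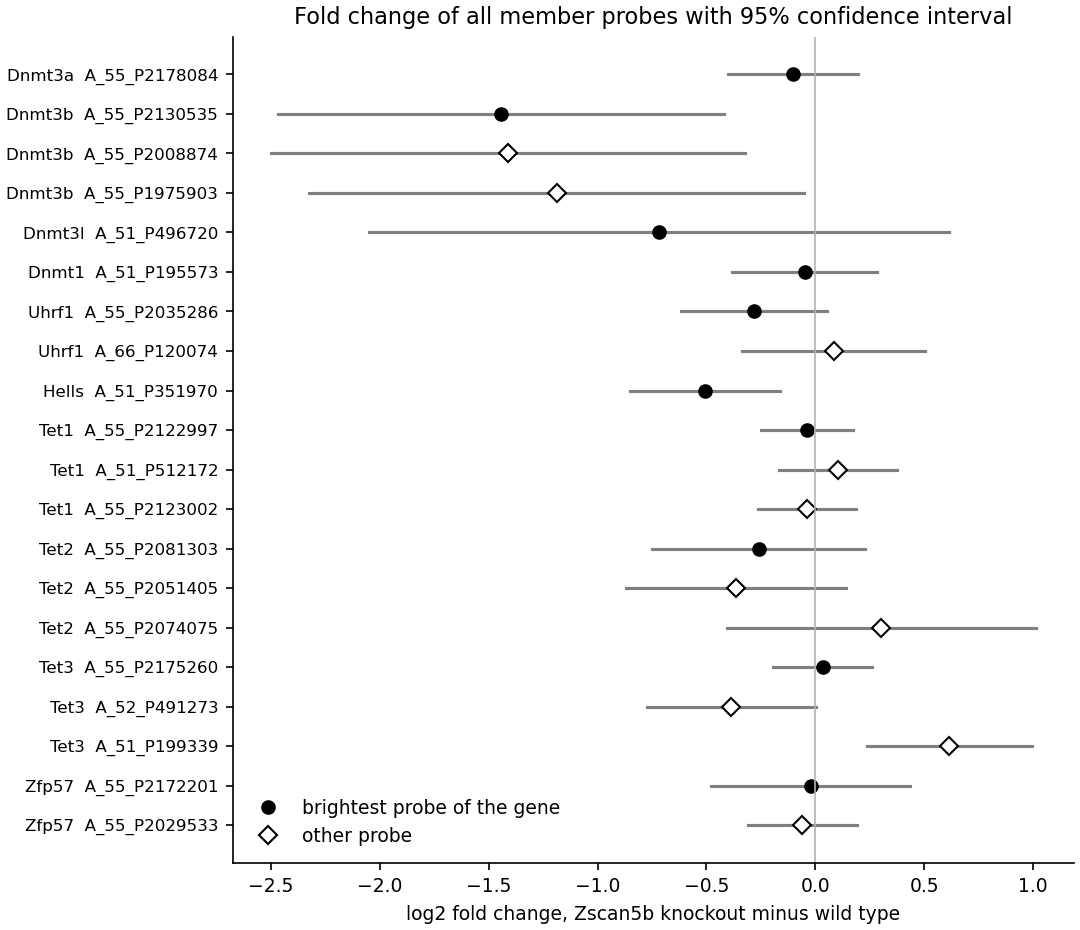
Log2 fold change, knockout minus wild type, of the 20 probes with 95% confidence intervals from limma; filled circles are the brightest probe of a gene and open diamonds its other probes. The intervals of the 3 Dnmt3b probes, of Hells and of 1 Tet3 probe leave out 0, none of them with an adjusted p below 0.05.

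Other genes of the pathway were read from 5 lists with 66 genes, 1 probe a gene, all of them tested. None passed the test, with a smallest limma adjusted p of 0.0918, beside 0.465% of all tested probes called. An unadjusted p below 0.05 was reached by 14 of the 66, 11 with negative and 3 with positive fold changes, beside 21.9% of all tested probes (11.3% negative and 10.6% positive). The count in all is close to that background. Fold changes were negative for 46 of the 66, with a median of -0.14, against 51.4% and a median of -0.01 for all tested probes. That share is also the background for the counts of each list below. Every knockout array was below every wild type array in 14 genes and above in 4, beside 15.4% and 13.6% of all tested probes.

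The gene with that smallest p was Gadd45b, a stress protein linked to active demethylation. It read 2.34, 2.52 and 2.38 in the knockout arrays, against 1.37, 1.46 and 0.52 in the wild type arrays. Every knockout array was above every wild type array, with a fold change of 1.29 (SE 0.26). In its list, demethylation and base excision partners of the Tet enzymes, 11 of 19 genes had positive fold changes, with a median of 0.07. The values next in p were -0.49 for Apex1, the abasic site endonuclease, 0.48 for Neil3, a DNA glycosylase, and -0.28 for Ogt, the O-GlcNAc transferase that binds Tet proteins.

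Of the maintenance and de novo partners, 10 of 14 had negative fold changes, with a median of -0.07. Uhrf2, a paralog of Uhrf1, had 0.37, with every knockout array above every wild type array. Values were -0.37 for Ehmt2, an H3K9 methyltransferase, -0.30 for Dmap1, which binds Dnmt1, and -0.26 for Usp7, the deubiquitinase of the Dnmt1 complex, with every knockout array lower in all 3. The readers of methylated and unmethylated CpG had negative fold changes in 9 of 10 genes, with a median of -0.22. Dimmer probes of Mbd2, Mbd3, Zbtb4 and Zbtb38 had positive fold changes, while those of Kdm2a, Kdm2b and Mbd1 had negative ones. The CXXC proteins Kdm2a and Kdm2b had -0.41 and -0.33, and the methyl-CpG binding Mbd2 and Mbd1 had -0.36 and -0.26.

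The partners of Zfp57 in imprint control had negative fold changes in 8 of 10 genes, with a median of -0.15. Atrx and Daxx, which together deposit histone H3.3, had -0.41 and -0.44, Arid4a had -0.37, and the H3K9 methyltransferase Setdb1 had -0.21. In methyl donor supply, 11 of 13 genes had negative fold changes, with a median of -0.21. Gldc, of the glycine cleavage system, had -0.58, and Tdh, the threonine dehydrogenase on which mouse ES cells draw for methyl groups, had -0.80. Mtr, the methionine synthase, had -0.22. A dimmer probe of Ogt, Usp7, Mbd2, Arid4a and Atrx had a fold change of the opposite sign.

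Without wild type replicate 2, 8 of these 66 genes passed the test, 5 lower and 3 higher, beside 9.69% of all tested probes. Those named here were Mat2a, Daxx, Atrx, Kdm2a, Gadd45b, Prdm14 and Neil2. Mat2a, which makes the methyl donor S-adenosylmethionine, fell by 0.76, Daxx by 0.65, Atrx by 0.51 and Kdm2a by 0.50 on the log2 scale. Gadd45b, Prdm14 and the glycosylase gene Neil2 rose by 1.46, 0.75 and 0.61. Wild type replicate 2 was the lowest wild type array for the named genes that fell and the highest for those that rose. Leaving it out thus widened these differences by construction. Array weights, an alternative that gives each array its own precision, called Gadd45b alone of the 66, beside 2.41% of all tested probes.

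Germline genes that promoter methylation keeps silent in somatic cells were read, with 14 of 15 genes tested and a median fold change of 0.03. Since these 14 were detected in ES cells, their silence in somatic cells does not make their RNA a readout of the enzymes here. None passed the test, and 10 of the 14 had positive fold changes, beside a negative share of 51.4% over all tested probes. Mael, a piRNA pathway gene, read 0.34, 0.38 and -0.03 in the knockout arrays, against 1.05, 1.08 and 1.05 in the wild type arrays, with a fold change of -0.83 (SE 0.14, limma adjusted p = 0.0676). Rhox5, a homeobox gene, had -0.64 with no overlap between the groups, Sycp1 had -0.54 and Dpep3 had 0.79, the last 2 with overlap. The Dpep3 probe was dim, and its fold change shrank to 0.06 with normexp background correction. The arrays measure RNA only, and no methylation level was part of the data.

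**Figure D5:**
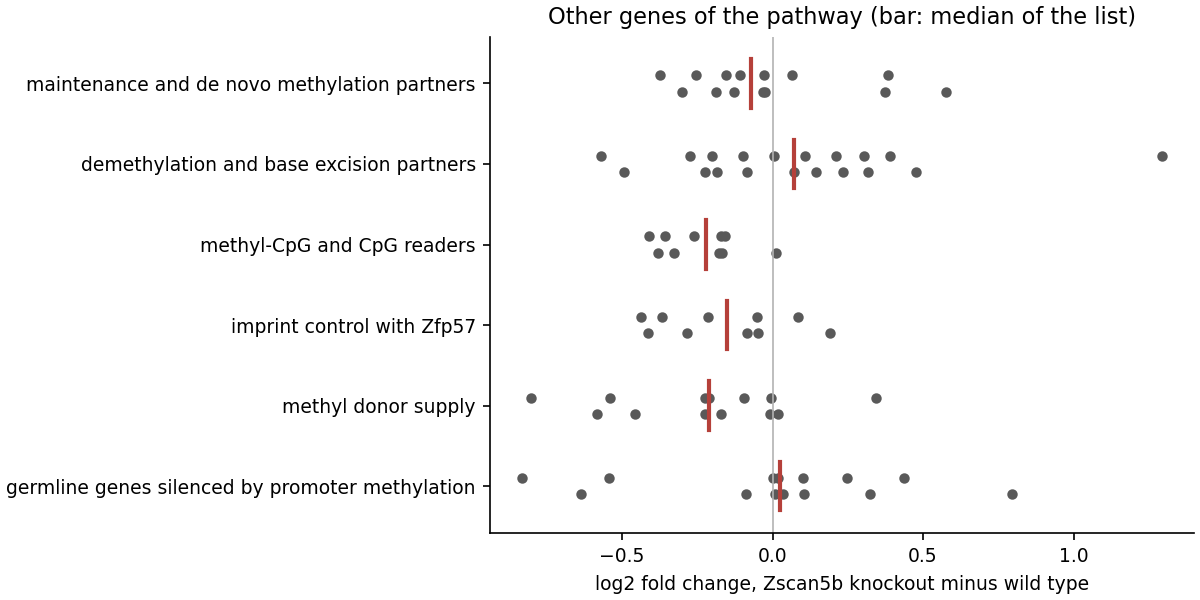
Log2 fold change, knockout minus wild type, of the tested genes of 5 pathway lists and of the germline list, 1 point a gene, with a red bar at the median of each list. Medians lie between -0.22 and 0.07, and the point at 1.29 is Gadd45b.

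Markers of pluripotent states were read because Dnmt3b and Dnmt3l differ between them. Of 14 naive and primed state markers none passed the test, and the median fold change was 0.10. The naive factors Klf4 and Klf2 had 0.56 and 0.50, while Nr0b1, also a naive factor, had -0.67, and the primed marker Fgf5 had -0.74. The Fgf5 probe was dim, and normexp background correction gave it -0.26. A mean over this list would mix markers that are known to go opposite ways, so 2 of them, chosen after their values were seen, are given by array. The naive factor Tfcp2l1 read 3.21, 3.07 and 2.98 in the knockout replicates, against 2.57, 3.54 and 2.04 in the wild type replicates. The primed factor Pou3f1 read 0.61, 0.14 and 0.39 in the knockout replicates, against 1.88, -0.25 and 1.94 in the wild type replicates. Wild type replicate 2 was the highest of the 6 arrays for Tfcp2l1 and the lowest for Pou3f1. For the naive factors Klf4 and Klf2, however, this array read 4.07 and 4.12, below every knockout array. The primed marker Fgf5 was lowest in knockout replicate 2, so the list gives no single order of the arrays. Two-cell-like genes, 9 of 16 tested, averaged, relative to each gene's own mean, 0.38, 0.07 and 0.40 in the knockout replicates, against 0.62, -0.94 and -0.53 in the wild type replicates, and none passed the test. The part of these markers in the Dnmt3b and Dnmt3l values was not tested.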

How the data were processed

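Total RNA of 3 Zscan5b knockout and 3 wild type ES cell samples was measured on 1-colour Agilent arrays, with groups taken from the sample titles. The deposited scanner files hold spot intensity. Background subtraction and detrending were done by Feature Extraction, version 10.7.3.1 per the file headers and 10.3.1.1 per the submitters' processing notes. The authors' deposited series table holds log2 values centred per probe, with a scaling that no source used here gives, and was tried as an alternative. Its column medians were -0.02, 0.02 and 0.03 for the knockout and 0.02, -0.01 and -0.07 for the wild type replicates.

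Control and outlier spots were left out. The log2 processed signal minus each array's 75th percentile was averaged over spots of a probe. Probes well above background on at least 3 of 6 arrays were tested, 26649 of 39429 (67.6%), with 25371 to 27754 probes well above background per array and none saturated. The number of arrays limits the precision. Groups were compared (two-sided) with lmFit and eBayes in limma 3.58.1 (R 4.3.3, data.table version 1.17.8), Benjamini-Hochberg adjusted over all tested probes with a threshold of 0.05. On simulated data with independent noise and no slide effect, the fit returned the sign of the largest shifts put in. That run does not show how well the fit detects the differences described here. A gene with several probes is represented by its brightest tested probe. Probe positions are those of the scanner files (mm9); names were updated, and promoter windows taken, from RefSeq tables (GRCm38.p6). Windows were counted with pandas 2.3.3 and figures drawn with matplotlib 3.10.9.

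The members, lists and tests were chosen with earlier results of these data known. Named are all 10 genes, Zscan5b, up to 4 genes a list with the smallest p, and the 5 genes nearest to Dnmt3b; genes called without wild type replicate 2, Dppa3, Prdm14, Tfcp2l1 and Pou3f1 were named after their values were seen. Of the genes so chosen, 2 are not reported here. Alternatives were background correction, normalization, dim-probe filter, array weights, variance prior, the replicate number as a block and leaving out each array.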

Additional observations from a re-analysis of the deposited data

How the results depend on the processing

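With 33 probes called higher and 91 lower of all tested, the counts moved most among the results. Both were 0 with normexp background correction, no filter on dim probes, the filter on all 6 arrays, the trended and robust variance prior, and the replicate block, under which 5153 to 6514 probes had an unadjusted limma p below 0.05. The higher count was 50 with quantile normalization, the counts were 54 and 177 after a shift to the median, and 318 and 324 with array weights. Leaving out 1 array gave 0 to 1436 higher and 0 to 1079 lower, the top of both without wild type replicate 2; without wild type replicate 1, 1.98% of probes were called, and without any other array 0. Of the 20 probes 0 to 1 was then called higher and 0 to 5 lower, and of the 66 pathway genes 0 to 3 higher and 0 to 5 lower; array weights called 1 pathway gene higher. The causes were not tested. The labels do not say that replicate numbers pair the samples. The deviations of same-numbered arrays correlated at 0.16, 0.23 and -0.14, against -0.32 to 0.21 for knockout and wild type arrays of different number. The replicate block called 0 probes, as some alternatives without a block did, so neither check settles whether the samples are paired. A slide block was not run, since each slide holds 1 genotype.

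Fold changes that changed sign were uncalled. They were -0.0198 (normexp), -0.0382 (quantile), -0.0204 (median shift) and -0.0061 (without wild type replicate 2) for Tet3 A_55_P2175260. Dnmt1 gave 0.0128 (quantile), 0.0098 (array weights), 0.0172 (without knockout replicate 1) and 0.0141 (without wild type replicate 2). Tet1 gave 0.0842 (quantile) and 0.0089 (mean over its probes) for A_55_P2122997, and 0.0022 (quantile) for A_55_P2123002. Uhrf1 A_66_P120074 gave -0.0253 (array weights), -0.0010 (without knockout replicate 1) and -0.0821 (without wild type replicate 2), and Tet2 A_55_P2074075 gave -0.0177 (without wild type replicate 2). Zfp57 gave 0.0578 (without knockout replicate 2) and 0.1622 (without wild type replicate 3) for A_55_P2172201, and 0.0069 (without wild type replicate 3) for A_55_P2029533. Over the 6 fits that leave out 1 array, the ranges were -0.1611 to 0.0172 for Dnmt1, -0.0821 to 0.1775 for Uhrf1 A_66_P120074, -0.0177 to 0.5161 for Tet2 A_55_P2074075, -0.0061 to 0.0689 for Tet3 A_55_P2175260, -0.1646 to 0.1622 for Zfp57 A_55_P2172201 and -0.0959 to 0.0069 for Zfp57 A_55_P2029533. The brightest Dnmt3b probe stayed between -1.90 and -1.12, and Hells between -0.62 and -0.40, in all 16 alternatives.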
